A study of Homo sapiens with 9 samples.

Results

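Versican and 9 other genes of the extracellular matrix were followed in Huh7 cells given PGG. The genes were VCAN, FN1, THBS1, COL1A1, COL4A1, COL4A2, COL5A2, LAMB1, LAMC1 and TIMP1. Every probe set whose platform annotation carried exactly 1 symbol equal to one of these was taken, which gave 35 of 54613 probe sets and 10 of 19775 genes. The genes had been picked with results of these arrays known, so their values are given as a description, with no p-value for any of them.

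Huh7 is an established human hepatocellular carcinoma line, and PGG, a penta-O-galloyl glucopyranoside, is a plant polyphenol in which gallic acid groups are joined to a glucose core. The study asked which genes PGG changes in these cells. Total RNA was hybridized to Affymetrix arrays for 3 groups of 3 biological replicates: PGG at 0.1 mg/mL for 6 hours (PGG 6 h), PGG at 0.1 mg/mL for 48 hours (PGG 48 h) and the solvent PBS for 48 hours (PBS 48 h). The titles give 48 hours for the PBS arrays, whereas their descriptions give 0 hours of PGG. Both PGG groups were set against the same 3 PBS arrays. No array of PBS at 6 hours was among the 9, and the effect of PGG at 6 h cannot be told apart from a difference in time in culture. All 9 arrays come from 1 cell line.

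The extracellular matrix is the network of proteins and sugars that surrounds cells. Collagens and laminins build its fibres and sheets, fibronectin and thrombospondin link it to the cell surface, and proteoglycans such as versican fill the space between. Proteases remodel this network, and their inhibitors, the TIMPs among them, restrain that remodelling. In the liver most fibrous matrix is laid down by stellate cells, while hepatocytes and hepatoma cells also make and secrete matrix proteins, fibronectin above all.

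Values are RMA log2 values, 1 per probe set and array, so a difference of 1 is a doubling of the signal. The array medians lay between 5.16 and 5.20. The 9 measured hepatocyte markers, ALB and AFP among them, were above the median of all values, 5.18, on all 9 arrays. Of 10 stellate cell and fibroblast markers 5 lay below that median on all 9 arrays, and so did 5 of 8 endothelial markers, CDH5 and VWF included, and 2 of 6 leukocyte markers, PTPRC and CSF1R. Of the leukocyte markers 3, LYZ, AIF1 and CD3E, were above it on all 9 arrays, LYZ at means of 11.96 to 12.14, as were 2 of the stellate cell markers, PDGFRB and THY1, and 1 endothelial marker, PECAM1. The signal of the ACTB 3′ control probe set minus that of its 5′ one, a sign of RNA integrity, was 2.14, 4.03 and 2.67 on the PGG 48 h arrays, and ranged from 0.96 to 1.57 on the other 6 arrays. PGG 48 h replicate 2 also stood apart in the GAPDH controls, at 1.83, against 0.13 to 0.39 on the other 8 arrays. Without this array the counts of member probe sets at 48 h, given further on, were the same, those of other matrix genes were 56 higher and 35 lower, against 54 and 35 with it, and the part of RNA integrity in the 48 h results was not tested.

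The sequences just upstream of 5 of the genes are shown first. VCAN, THBS1 and TIMP1 are shown because each differed widely but in its own course over time, and COL4A1 with COL4A2 because they share 1 stretch while their values ran differently. RefSeq (GRCh38.p14) gave a promoter for 8 of the 10 genes, all but COL1A1 and COL5A2. The windows are the 250 bases before the annotated start of VCAN (chr5:83471494-83471743), THBS1 (chr15:39580829-39581078) and TIMP1 (chrX:47582186-47582435), all on the plus strand, and the 126 bases that separate the starts of COL4A1 and COL4A2, which are transcribed in opposite directions (chr13:110307158-110307283, plus strand). Capitals mark matches to any of 7 motifs searched on both strands.
VCAN: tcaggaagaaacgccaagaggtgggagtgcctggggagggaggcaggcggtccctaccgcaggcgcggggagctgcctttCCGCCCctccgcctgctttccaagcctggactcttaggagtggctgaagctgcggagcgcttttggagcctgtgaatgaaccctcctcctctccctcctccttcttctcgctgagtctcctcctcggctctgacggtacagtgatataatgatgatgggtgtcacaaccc
THBS1: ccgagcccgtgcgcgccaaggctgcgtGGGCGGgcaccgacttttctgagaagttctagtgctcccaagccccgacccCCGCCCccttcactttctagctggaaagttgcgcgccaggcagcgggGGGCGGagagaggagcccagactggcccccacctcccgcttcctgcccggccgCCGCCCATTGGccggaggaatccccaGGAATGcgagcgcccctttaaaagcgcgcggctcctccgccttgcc
TIMP1: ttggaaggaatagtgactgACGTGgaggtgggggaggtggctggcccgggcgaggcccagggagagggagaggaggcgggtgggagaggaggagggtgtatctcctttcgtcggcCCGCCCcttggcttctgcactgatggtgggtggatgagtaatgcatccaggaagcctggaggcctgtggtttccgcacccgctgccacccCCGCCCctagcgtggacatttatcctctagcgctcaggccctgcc
between COL4A1 and COL4A2: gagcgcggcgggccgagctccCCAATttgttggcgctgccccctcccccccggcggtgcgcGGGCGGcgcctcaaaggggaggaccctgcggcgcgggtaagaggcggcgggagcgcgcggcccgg

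One motif was CACGTG, the E-box bound by MYC and MAX. Another was ACGTG, the core of the hypoxia response element, whose letters also lie within the E-box. The rest were TGANTCA, bound by AP-1, the GC box of SP1, GGGCGG, the CCAAT box, the TATA box TATAAA, and the TEAD site GGAATG. The GC box was found in all 8 member promoters and in 42.6% of 35116 promoters of the same length. CCAAT was found in 4 of 8, namely FN1, COL4A1, COL4A2 and THBS1, and in 32.0% of all promoters. ACGTG occurred in TIMP1 alone (18.5% of all promoters) and GGAATG in THBS1 alone (11.9%). CACGTG (6.3% of all promoters), TGANTCA (6.6%) and TATAAA (10.7%) were not in these 8 windows. The VCAN window held 1 GC box, the TIMP1 window ACGTG and 2 GC boxes, and the THBS1 window 4 GC boxes, of which the last runs into CCAAT on the opposite strand, and GGAATG. The stretch between COL4A1 and COL4A2 held 1 CCAAT and 1 GC box. It lies within the windows of both genes, so these matches are counted for each of them in the shares above. These matches are letters in a window, and binding was not measured here.

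VCAN, at chr5:83471744-83582302, encodes versican, a large chondroitin sulfate proteoglycan that binds hyaluronan. Its 5 probe sets were all lower under PGG at both times. Probe set 221731_x_at, the one with the highest signal, read 5.28, 5.35 and 5.52 at PGG 6 h and 5.20, 5.47 and 5.30 at PGG 48 h, against 9.04, 8.89 and 8.86 in PBS 48 h. The highest PGG array lay far below the lowest PBS array, and the PGG arrays of both times lay in 1 range. The difference from PBS was -3.55 at 6 h (95% interval -3.75 to -3.34) and -3.61 at 48 h (-3.81 to -3.40), which is 11.7-fold and 12.2-fold lower. In bulk RNA, fewer cells that express a gene and less RNA per cell cannot be told apart.

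The other VCAN probe sets gave the same picture. Probe set 204619_s_at read 4.38, 4.25 and 4.36 at PGG 6 h and 4.06, 3.82 and 4.29 at PGG 48 h, against 6.64, 6.84 and 6.77 in PBS 48 h. Probe set 215646_s_at read 3.03, 2.98 and 3.48 at PGG 6 h and 3.07, 3.24 and 2.92 at PGG 48 h, against 6.67, 6.05 and 6.03 in PBS 48 h. In each of the 5 sets every PGG array was below every PBS array. Across the sets the differences ran from -3.55 to -2.42 at 6 h and from -3.61 to -2.49 at 48 h. For 3 of the 5 sets only the PBS arrays were above the median of all values. The difference between PGG 48 h and PGG 6 h ran from -0.27 to 0.09 over the 5 sets, and the 95% interval for 221731_x_at was -0.26 to 0.14.

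**Figure D1:**
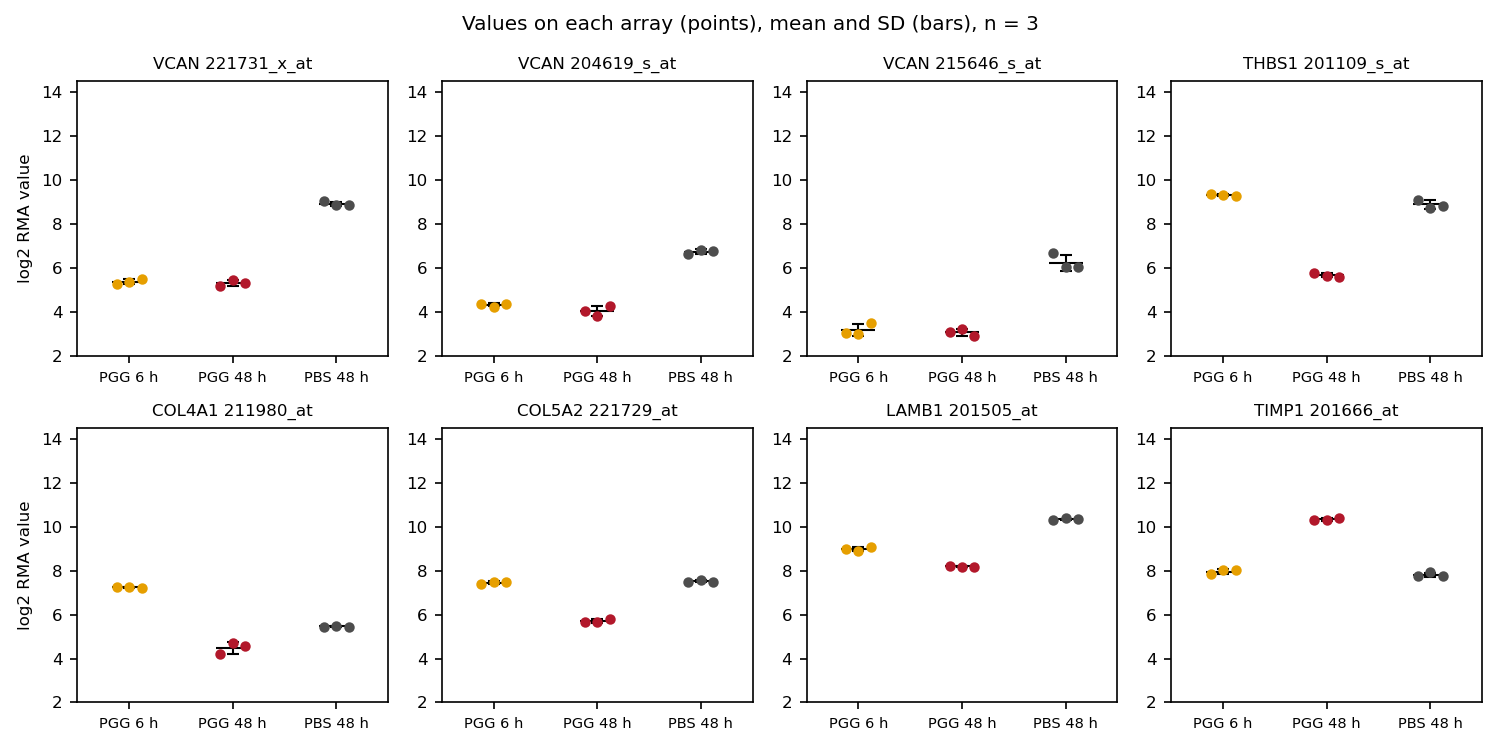
log2 RMA values of 8 member probe sets on each array (points), with the mean and SD of the 3 arrays of PGG 6 h, PGG 48 h and PBS 48 h. VCAN was low in both PGG groups, THBS1 was low at PGG 48 h only, COL4A1 was highest at PGG 6 h, and TIMP1 was highest at PGG 48 h.

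THBS1, at chr15:39581079-39599466, encodes thrombospondin-1, a secreted matricellular glycoprotein that activates latent TGF-beta and binds CD47. At PGG 6 h its brightest probe set, 201109_s_at, read 9.37, 9.33 and 9.30, and at PGG 48 h it read 5.78, 5.65 and 5.59, against 9.12, 8.75 and 8.84 in PBS 48 h. The PGG 6 h arrays lay just above the PBS arrays and the PGG 48 h arrays far below them. The differences from PBS were 0.43 at 6 h (0.22 to 0.64) and -3.23 at 48 h (-3.44 to -3.02), the second being 9.38-fold lower. All 7 THBS1 probe sets were lower at 48 h, by sizes that differed widely, from -3.34 for 201110_s_at to -0.47 for 215775_at. At 6 h the 7 sets ran from -0.06 to 1.01. Of these, 3 were past the threshold as higher, 201109_s_at, 201108_s_at (0.35) and 235086_at (1.01), and the other 4 lay between -0.06 and 0.10. The call of 201108_s_at at 6 h was lost without any 1 of 5 arrays (0.25 without PBS 48 h replicate 2), and the methods' t-test did not call 201109_s_at at 6 h.

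FN1 encodes fibronectin, an adhesive glycoprotein that plasma receives mainly from the liver. Its 7 probe sets disagreed. In 4 of them, with means from 13.13 to 13.59, PGG differed from PBS by -0.16 to -0.09 at 6 h and by -0.12 to -0.06 at 48 h. The brightest, 216442_x_at, read 13.53, 13.46 and 13.47 at PGG 6 h and 13.46, 13.53 and 13.47 at PGG 48 h, against 13.56, 13.61 and 13.60 in PBS 48 h. The other 3 sets, with lower signal, were 2.22-fold to 2.29-fold lower at 48 h. In 214702_at and 1558199_at the PGG 48 h means, 5.20 and 5.05, lay near the median of all values, so their folds are approximate. Probe set 214702_at read 6.32, 6.38 and 6.25 at PGG 6 h and 5.24, 5.18 and 5.17 at PGG 48 h, against 6.47, 6.25 and 6.32 in PBS 48 h, so only the 48 h arrays stood below PBS, by -1.15 (-1.31 to -0.99). Probe set 1558199_at was -1.16 from PBS at 48 h. In 214701_s_at the PBS arrays themselves spread widely, at 8.90, 7.29 and 7.48, and the 48 h difference of -1.20 was -0.69 without PBS replicate 1 and lost its call without PGG 48 h replicate 3 (-1.10).

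COL4A1 and COL4A2 encode the α1 and α2 chains of type IV collagen, the network collagen of basement membranes, and lie head to head on chromosome 13. COL4A1 was higher at 6 h and lower at 48 h. Probe set 211980_at read 7.26, 7.25 and 7.22 at PGG 6 h and 4.20, 4.71 and 4.56 at PGG 48 h, against 5.45, 5.48 and 5.45 in PBS 48 h, with no overlap between any of the 3 groups. The differences from PBS were 1.78 at 6 h (1.54 to 2.02), which is 3.44-fold higher, and -0.97 at 48 h (-1.21 to -0.73), where the PGG 48 h arrays lay below the median of all values. The second set, 211981_at, ran the same way with smaller sizes, 0.84 and -0.33. COL4A2 did not share this course. Its probe set 211964_at read 5.29, 5.20 and 5.44 at PGG 6 h and 5.10, 5.35 and 5.37 at PGG 48 h, against 4.99, 5.05 and 5.09 in PBS 48 h, differences of 0.27 (0.07 to 0.47) and 0.23 (0.03 to 0.43). The PGG arrays lay above the PBS arrays by a narrow margin, and these differences did not pass the threshold, though several other settings called them. The second COL4A2 set, 211966_at, differed by 0.30 and 0.08 and lay below the median of all values on all 9 arrays.

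COL5A2, which encodes a chain of the fibril collagen type V, was close to PBS at 6 h and lower at 48 h in both probe sets. Probe set 221729_at read 7.39, 7.50 and 7.47 at PGG 6 h and 5.66, 5.65 and 5.81 at PGG 48 h, against 7.50, 7.56 and 7.47 in PBS 48 h. The PGG 6 h and PBS arrays overlapped, and the 48 h arrays lay below both, by -1.80 from PBS (-1.96 to -1.65), or 3.49-fold. The second set, 221730_at, gave -0.17 at 6 h and -0.68 at 48 h.

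COL1A1 encodes the α1 chain of type I collagen, the main fibril collagen of scar tissue, and its 5 probe sets did not give 1 answer. Probe set 1556499_s_at read 3.93, 3.47 and 3.71 at PGG 6 h and 6.34, 6.50 and 6.46 at PGG 48 h, against 2.65, 2.70 and 2.65 in PBS 48 h. Its 3 groups stood apart from one another, with differences from PBS of 1.04 at 6 h (0.81 to 1.27) and 3.77 at 48 h (3.54 to 4.00). The PGG 6 h and PBS arrays lay below the median of all values, 5.18, so no fold is given. Probe set 202310_s_at read 5.26, 5.50 and 5.86 at PGG 48 h, against 3.59, 3.66 and 3.79 in PBS 48 h, a difference of 1.86, and differed by 0.30 at 6 h. The set with the highest signal, 217430_x_at, went the other way, at 7.25, 7.18 and 7.29 at PGG 48 h, against 7.49, 7.52 and 7.56 in PBS 48 h, a difference of -0.28 (-0.43 to -0.14). Its suffix x marks a set that, by the array maker's naming, may also match other sequences. VCAN 221731_x_at and FN1 216442_x_at, 210495_x_at and 211719_x_at carry the same suffix. The remaining 2 sets, 202312_s_at and 202311_s_at, differed by -0.07 to 0.11 at both times and were below the median of all values on all 9 arrays. The mean of the 5 sets was 1.07 above PBS at 48 h, so the direction given for COL1A1 depends on the probe set.

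The stellate cell and fibroblast markers were examined beside COL1A1. Their mean over 10 genes was 4.47 to 4.56 at PGG 6 h and 4.74 to 4.84 at PGG 48 h, against 4.44 to 4.50 in PBS 48 h. LUM, at 3.00, 6.19 and 2.93 in PGG 6 h, PGG 48 h and PBS 48 h, had the largest difference among them at 48 h. Without LUM the mean of the other 9 was 4.66 to 4.73 at PGG 6 h and 4.58 to 4.70 at PGG 48 h, against 4.60 to 4.68 in PBS 48 h, so the 3 ranges overlapped. PDGFRB rose by 0.45 at 6 h and 0.50 at 48 h (adjusted p = 0.0097 and 0.0031, limma) and DES by 0.32 at 48 h (adjusted p = 0.0076, limma), while COL3A1 fell by 0.32 at 48 h (adjusted p = 0.00053, limma). PDGFRA, ACTA2, LRAT, COL3A1 and FAP stayed below the median of all values on all 9 arrays. The part of such cells in the COL1A1 values was not tested.

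**Figure D2:**
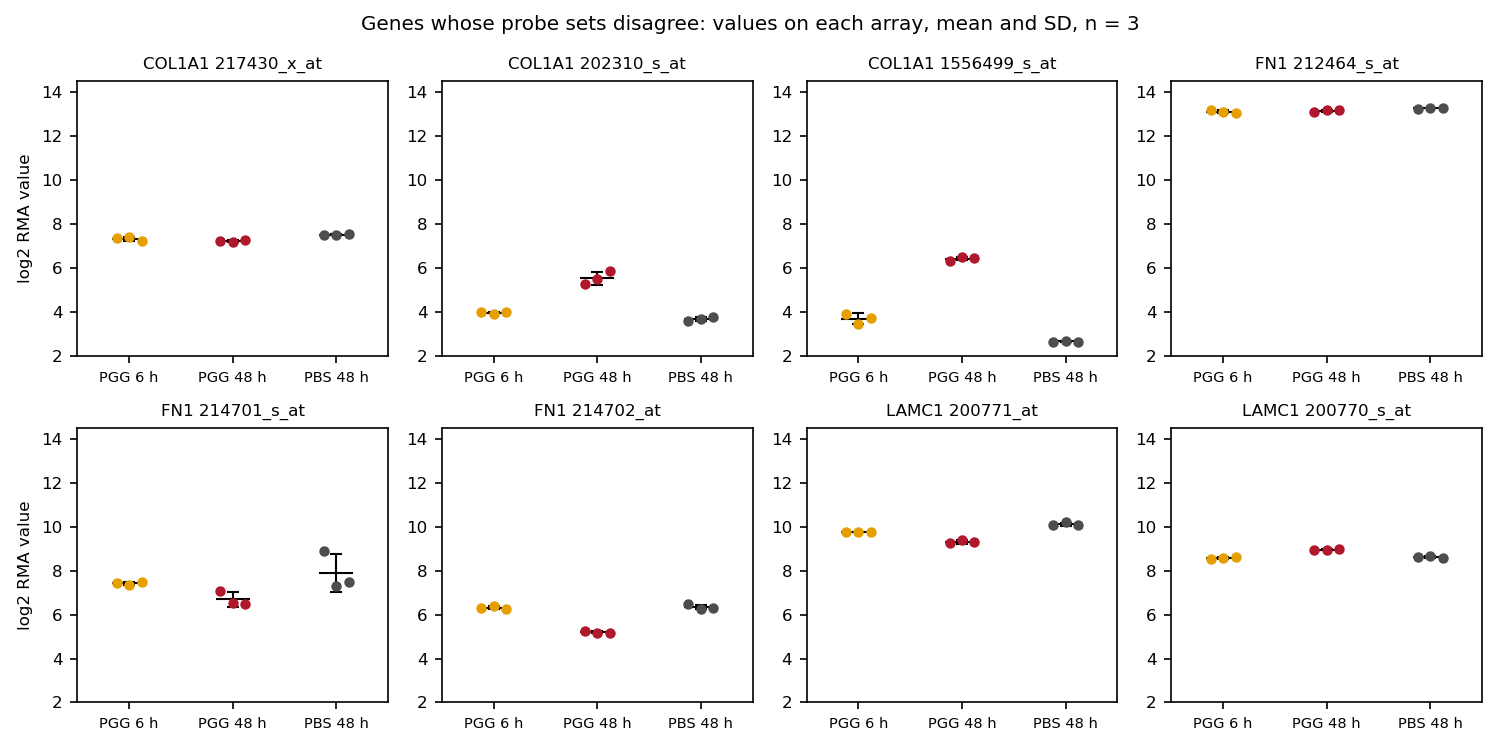
log2 RMA values on each array (points), with mean and SD, for probe sets of COL1A1, FN1 and LAMC1 that disagreed, in PGG 6 h, PGG 48 h and PBS 48 h (3 arrays each). COL1A1 1556499_s_at was higher at PGG 48 h while 217430_x_at was slightly lower, FN1 214702_at was lower at PGG 48 h while 212464_s_at differed by -0.12, and LAMC1 200771_at was lower at PGG 48 h while 200770_s_at was higher.

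LAMB1 and LAMC1 encode the β1 and γ1 chains of laminin, the cross-shaped protein of basement membranes. LAMB1 was lower at 6 h and lower still at 48 h. Probe set 201505_at read 8.99, 8.88 and 9.06 at PGG 6 h and 8.23, 8.18 and 8.18 at PGG 48 h, against 10.32, 10.38 and 10.34 in PBS 48 h. No group overlapped another, and the differences from PBS were -1.37 (-1.51 to -1.23) and -2.15 (-2.29 to -2.01), or 2.58-fold and 4.44-fold lower. The second set, 211651_s_at, gave -1.44 and -2.20. For LAMC1 the probe sets disagreed at 48 h. Probe set 200771_at read 9.76, 9.76 and 9.74 at PGG 6 h and 9.24, 9.42 and 9.29 at PGG 48 h, against 10.07, 10.20 and 10.10 in PBS 48 h, differences of -0.37 and -0.81. Probe set 200770_s_at read 8.53, 8.57 and 8.64 at PGG 6 h and 8.92, 8.96 and 8.99 at PGG 48 h, against 8.63, 8.66 and 8.58 in PBS 48 h, differences of -0.04 and 0.33. The first set was below PBS at both times and the second was above it at 48 h only.

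TIMP1, at chrX:47582436-47586789, encodes a secreted inhibitor of matrix metalloproteinases and had 1 probe set. It read 7.83, 8.01 and 8.04 at PGG 6 h and 10.32, 10.30 and 10.41 at PGG 48 h, against 7.74, 7.92 and 7.76 in PBS 48 h. The 6 h arrays overlapped the PBS arrays (difference 0.15, -0.02 to 0.33), and the 48 h arrays were all above them, by 2.54 (2.36 to 2.71), or 5.80-fold.

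**Figure D3:**
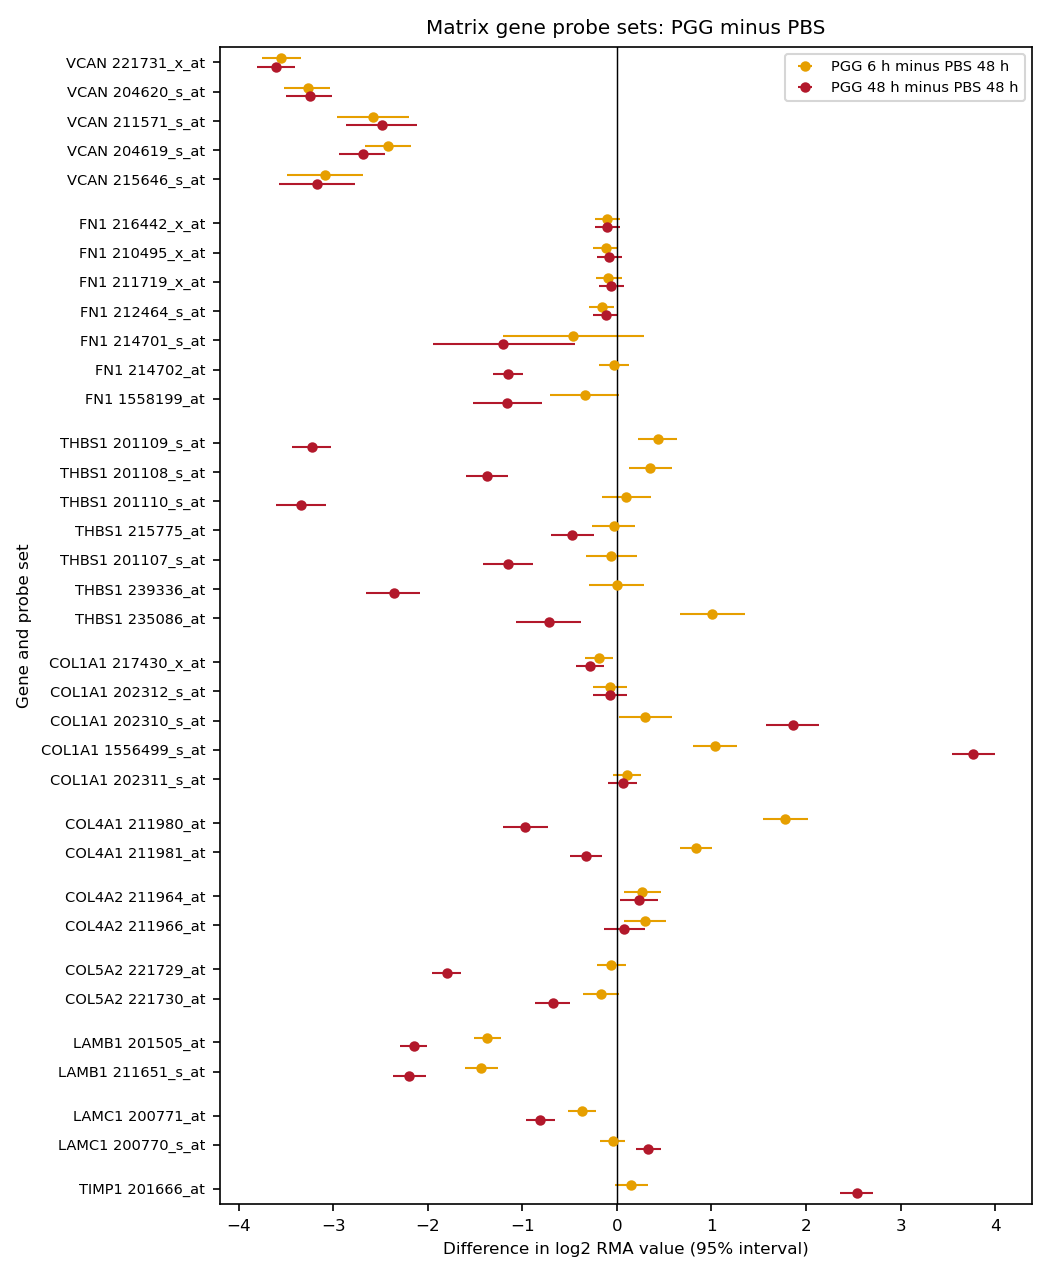
Difference in log2 RMA value from PBS 48 h, with its 95% interval from limma, for the 35 member probe sets at PGG 6 h and PGG 48 h. VCAN lay between -3.61 and -2.42 at both times, whereas THBS1, COL4A1, COL5A2 and TIMP1 differed between the times.

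Counted over all 35 probe sets at an adjusted p under 0.05, 6 were higher and 8 lower at PGG 6 h, where 12.2% of all probe sets were higher and 12.5% lower. At PGG 48 h 4 were higher and 23 lower, against 18.8% and 20.2% of all probe sets. Between PGG 48 h and PGG 6 h 4 were higher and 16 lower, against 18.0% and 18.4%. The median difference of the 35 was -0.06, -0.81 and -0.27 in these comparisons, where that of all probe sets was 0.00, -0.02 and -0.02. Groups did not overlap in 9 sets upwards and 12 downwards at 6 h (18.8% and 18.7% of all probe sets), in 5 and 25 at 48 h (20.9% and 23.6%), and in 4 and 18 between the times (21.4% and 23.4%). Because the genes were picked from these results, the counts describe the choice and nothing is read from them. At the study's cut-off, an adjusted p under 0.005 with a difference beyond 1.5, here applied to limma, the 35 held 1 higher and 5 lower at 6 h (0.298% and 0.434% of all probe sets), with COL4A1 higher and the 5 VCAN sets lower. At 48 h it held 3 higher and 11 lower (2.25% and 1.85%), and between the times 3 higher and 7 lower (1.75% and 1.27%). The methods' t-test was run here with Benjamini-Hochberg adjustment in place of the study's q-values. With it the same cut-off took 4 of the 35 at 6 h, 14 at 48 h and 8 between the times. Limma gave 6, 14 and 10. By its own q-values the study listed all 5 VCAN sets as past its cut-off at both times. Of the 35 sets 17 were above the median of all values on all 9 arrays and 3 on fewer than 3 arrays. A further 7 were above it only on the 3 arrays of the group in which they were highest, so these had to differ.

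Of 209 other matrix genes in 8 lists by role, none of them a member, 198 were measured. These lists too were chosen with earlier results of these data known. Their counts, shares and p-values, here and below, are therefore a description and no independent test. At PGG 6 h 33 rose and 26 fell (limma, adjusted p under 0.05 over all genes), which is 16.7% and 13.1% of the 198, against 17.2% and 16.9% of all genes. At PGG 48 h 54 rose and 35 fell, 27.3% and 17.7%, against 23.9% and 24.3% of all genes. The median difference of the 198 was 0.01 and 0.02. Where a gene had several probe sets, the brightest stands for it. By that set LUM, GPC4, NPNT, NID2, NTN4, PLAU and CD44 were above the median of all values on the PGG 48 h arrays only. The rises given for them below therefore start from a PBS 48 h signal below that median. For every gene named that passed the threshold against PBS, the 3 PGG arrays lay all on 1 side of the 3 PBS arrays, which the rule for naming them asked for except in the partners of members. Over all genes it held upwards for 23.0% and downwards for 22.1% at 6 h, and 25.3% and 26.5% at 48 h. Between PGG 48 h and PGG 6 h 57 rose and 37 fell, against 23.6% and 23.4% of all genes. At the study's cut-off 4 rose and 0 fell at 6 h (0.349% and 0.541% of all genes), 20 rose and 5 fell at 48 h (3.08% and 2.12%), and 13 rose and 3 fell between the times (2.53% and 1.55%). For the count of 0, limma had 34 of the 198 lower at an unadjusted p under 0.05, and the methods' t-test also gave 0 at that cut-off.

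**Figure D4:**
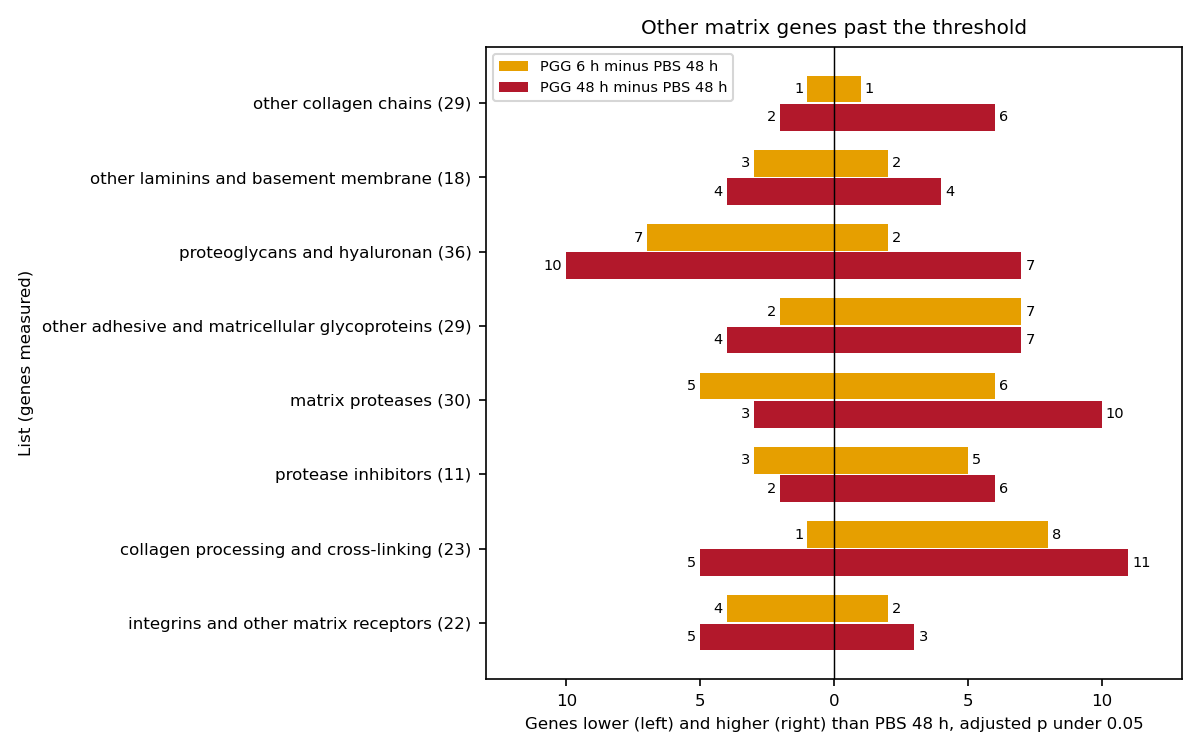
Number of other matrix genes lower (left) and higher (right) than PBS 48 h at an adjusted p under 0.05 (limma), by list, at PGG 6 h and PGG 48 h, with the genes measured in brackets. In collagen processing 8 genes were higher and 1 lower at 6 h, and 11 higher and 5 lower at 48 h. Over all genes 17.2% were higher and 16.9% lower at 6 h, and 23.9% and 24.3% at 48 h.

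Enzymes that modify and cross-link collagen included the largest differences among the 198 other matrix genes. Of 23 measured, 8 rose and 1 fell at 6 h (34.8% and 4.3%, against 17.2% and 16.9% of all genes). By 48 h 11 rose and 5 fell (47.8% and 21.7%, against 23.9% and 24.3% of all genes). LOXL2, a lysyl oxidase that cross-links collagen and elastin, averaged 7.92 ± 0.04 at PGG 6 h and 10.63 ± 0.03 at PGG 48 h, against 6.31 ± 0.13 in PBS 48 h (SD, n = 3 each), differences of 1.61 and 4.32 (adjusted p = 1.9e-08 and 5.2e-12, limma). Its other 3 probe sets were not called. P4HA2, a prolyl 4-hydroxylase subunit, rose by 1.21 and 3.14 (adjusted p = 2.7e-07 and 5.2e-11, limma), and P3H2, a prolyl 3-hydroxylase, by 2.03 and 2.32 (adjusted p = 2.2e-09 and 9.4e-11, limma). Each of these 2 genes had 1 further probe set that was not called. PCOLCE2, which enhances procollagen cleavage, differed by -0.79 and -0.78 (adjusted p = 2.2e-06 and 7.1e-07, limma), and PLOD3, a lysyl hydroxylase, by -0.15 at 6 h (adjusted p = 0.25) and -1.11 at 48 h (adjusted p = 3.9e-07, limma).

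Among 11 measured protease inhibitors 5 rose and 3 fell at 6 h (45.5% and 27.3%, against 17.2% and 16.9% of all genes). The 48 h counts were 6 and 2 (54.5% and 18.2%, against 23.9% and 24.3% of all genes). TIMP2, a relative of TIMP1, averaged 8.81 ± 0.05 at PGG 6 h and 10.03 ± 0.03 at PGG 48 h, against 7.24 ± 0.07 in PBS 48 h (SD, n = 3 each), and rose in all 3 of its probe sets at both times (1.57 and 2.79, adjusted p = 7.5e-09 and 2.7e-11, limma). SPINT1, an inhibitor of hepatocyte growth factor activator, rose by 0.65 and 2.34 (adjusted p = 1.9e-05 and 1.7e-10, limma) in 1 of 2 probe sets. TIMP4 differed by -0.40 and -0.71 (adjusted p = 0.00055 and 2.0e-06, limma). SERPINE2, which inhibits thrombin and plasminogen activators, was lower at 6 h (-0.37) and higher at 48 h (0.57, adjusted p = 0.00096 and 1.6e-05, limma), each in 1 of 2 probe sets. RECK passed at 48 h by a narrow margin (-0.24, adjusted p = 0.041, limma), which it lost without any 1 of 7 arrays (-0.14 without PBS 48 h replicate 1), and 1 of its 5 probe sets was called higher at 48 h over all probe sets and none lower.

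Of 30 measured matrix proteases 6 rose and 5 fell at 6 h (20% and 16.7%, against 17.2% and 16.9% of all genes). By 48 h 10 rose and 3 fell (33.3% and 10%, against 23.9% and 24.3% of all genes). MMP7, matrilysin, rose by 0.99 and 0.77 (adjusted p = 1.5e-05 and 5.0e-05, limma). At 48 h CTSK, the collagen-cleaving cathepsin K, rose by 1.59 and PLAU, urokinase, by 1.40 (adjusted p = 7.3e-06 and 4.0e-07, limma), and the 6 h calls of both were lost without single arrays. MMP16, a membrane-type metalloproteinase, differed by -0.68 and -1.76 (adjusted p = 0.0017 and 2.7e-07, limma) in 2 of 5 probe sets. ADAMTS20 differed by -0.56 and -0.72 (adjusted p = 0.0023 and 0.00019, limma) in 1 of 2, at a signal below the median of all values on all 9 arrays. ADAM17, a sheddase, was lower at 6 h (-0.64) and higher at 48 h (0.59, adjusted p = 9.8e-05 and 8.6e-05, limma), each in 2 of 3 probe sets. The gelatinases MMP2 and MMP9 differed by -0.01 to 0.02 at the 2 times, but both lay below the median of all values on all 9 arrays. The versican-cleaving proteases ADAMTS1, ADAMTS4, ADAMTS5 and ADAMTS9 were not called, with differences from -0.09 to 0.15 in their brightest sets. Those of ADAMTS5 and ADAMTS9 lay below the median of all values on all 9 arrays. Of the 4 ADAMTS9 sets 1 was called higher at 48 h over all probe sets (0.19).

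Among 36 measured proteoglycans and hyaluronan genes 2 rose and 7 fell at 6 h (5.6% and 19.4%, against 17.2% and 16.9% of all genes). The 48 h counts were 7 and 10 (19.4% and 27.8%, against 23.9% and 24.3% of all genes). LUM, lumican, rose by 3.27 at 48 h (adjusted p = 6.3e-10, limma) in 1 of 2 probe sets, and GPC4, a glypican, by 2.30 (adjusted p = 2.2e-08, limma) in both of its sets. HMMR, a hyaluronan receptor whose expression follows cell division, differed by -0.89 at 6 h and -1.69 at 48 h (adjusted p = 2.7e-06 and 3.1e-09, limma). ITIH2, a hepatocyte-made heavy chain that is attached to hyaluronan, differed by -0.35 and -1.23 (adjusted p = 0.0017 and 2.0e-08, limma), and HAPLN4, a hyaluronan link protein, by -0.54 and -0.38 (adjusted p = 0.0011 and 0.0068, limma). GPC1 and HYAL2 were higher at 6 h (0.33 and 0.27) and lower at 48 h (-0.32 and -0.43). GPC1 was called in 1 of its 2 probe sets at 6 h, where the other differed by -0.07, and in both at 48 h, and the 6 h call of HYAL2 was lost without any 1 of 4 arrays. The partners of versican HAS2, a hyaluronan synthase, and HAPLN1, its link protein, were not called, at 0.04 and 0.08 at 6 h and 0.10 and 0.13 at 48 h. The brightest HAS2 set lay below the median of all values on every array.

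Adhesive and matricellular glycoproteins, the class of THBS1 and FN1, had 29 measured members. Of these 7 were higher and 2 lower at 6 h (24.1% and 6.9%, against 17.2% and 16.9% of all genes). By 48 h 7 were higher and 4 lower (24.1% and 13.8%, against 23.9% and 24.3% of all genes). CCN2 averaged 10.32 ± 0.06 at PGG 6 h and 6.97 ± 0.10 at PGG 48 h, against 9.87 ± 0.05 in PBS 48 h (SD, n = 3 each), differences of 0.46 and -2.90 (adjusted p = 0.0002 and 3.7e-11, limma). CCN1, of the same family of matricellular proteins, was higher at 6 h (1.64) and lower at 48 h (-0.30, adjusted p = 4.0e-08 and 0.0086, limma), in both of its probe sets. FBLN5, a fibulin of elastic fibres, rose by 1.03 and 1.73 (adjusted p = 3.3e-05 and 1.3e-07, limma), and NPNT, nephronectin, by 0.71 and 2.52 (adjusted p = 0.00053 and 4.6e-09, limma) in 1 of 2 probe sets. TGFBI differed by -0.36 and -0.33 (adjusted p = 0.00043 and 0.00038, limma) and MATN3, a matrilin, by -0.56 and -0.69 (adjusted p = 0.0052 and 0.00071, limma).

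Of 29 other collagen chains measured, 1 rose and 1 fell at 6 h (3.4% each, against 17.2% and 16.9% of all genes). The 48 h counts were 6 and 2 (20.7% and 6.9%, against 23.9% and 24.3% of all genes). COL7A1, the anchoring-fibril collagen, rose by 2.32 at 48 h (adjusted p = 1.3e-09, limma) in both of its probe sets. COL6A1 rose by 1.11 (adjusted p = 5.3e-08, limma) in 1 of 8 sets, while 2 other sets were lower. COL4A5, a further type IV chain, differed by -1.72 at 48 h (adjusted p = 6.6e-07, limma) in 1 of 2 sets, and COL3A1 by -0.32 (adjusted p = 0.00053, limma) in 2 of 5 sets, at a signal below the median of all values. At 6 h COL18A1 was higher (0.38) and COL6A2 lower (-0.36, adjusted p = 0.0094 and 0.014, limma), each in 1 of 2 probe sets. The other COL6A2 set differed by 0.14, and the COL6A2 call was lost without PBS 48 h replicate 1 or PGG 6 h replicate 1. COL1A2 and COL5A1, whose chains assemble with those of COL1A1 and COL5A2, were not called, with differences of -0.07 and 0.01 at 6 h and -0.08 and -0.05 at 48 h. These are the values of their brightest sets, which lay below the median of all values on every array. The 3 COL1A2 sets ran from -0.08 to 0.33 at 48 h, and none was called.

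Laminins and other basement membrane genes had 18 measured members. Of these 2 were higher and 3 lower at 6 h (11.1% and 16.7%, against 17.2% and 16.9% of all genes). By 48 h 4 were higher and 4 lower (22.2% each, against 23.9% and 24.3% of all genes). NID2, nidogen-2, rose by 0.72 and 2.46 (adjusted p = 0.00089 and 1.0e-08, limma), and NTN4, a netrin that binds laminin γ chains, by 0.98 and 1.93 (adjusted p = 2.7e-06 and 2.4e-09, limma). FRAS1, a basement membrane protein of epithelia, averaged 9.23 ± 0.02 at PGG 6 h and 6.86 ± 0.19 at PGG 48 h, against 9.59 ± 0.06 in PBS 48 h (SD, n = 3 each), a difference of -2.73 at 48 h (adjusted p = 2.4e-10, limma), and 4 of the 6 FRAS1 sets passed as lower then. EGFLAM differed by -0.60 and -1.16 (adjusted p = 0.00021 and 2.7e-07, limma). LAMB2 was lower at 6 h (-0.43) and higher at 48 h (0.58, adjusted p = 0.0037 and 0.00022, limma). The laminin α chains LAMA1 and LAMA5 were not called, with differences from -0.08 to 0.05. LAMA1 lay below the median of all values on all 9 arrays.

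Among 22 measured matrix receptors 2 rose and 4 fell at 6 h (9.1% and 18.2%, against 17.2% and 16.9% of all genes). The 48 h counts were 3 and 5 (13.6% and 22.7%, against 23.9% and 24.3% of all genes). ITGA6, an integrin chain of laminin receptors, differed by -1.10 and -1.38 (adjusted p = 9.9e-07 and 3.5e-08, limma), and ITGA2, of a collagen receptor, by -1.13 and -1.27 (adjusted p = 1.7e-06 and 1.8e-07, limma), each in both of its probe sets. Their common partner ITGB1 differed by -0.33 and -0.47 (adjusted p = 0.0019 and 6.4e-05, limma), with 3 and 4 of its 7 probe sets called lower. ITGA5, of the fibronectin receptor, was lower at 6 h (-0.37) and higher at 48 h (2.07, adjusted p = 0.0062 and 2.2e-09, limma). ITGA1 ran the other way, at 0.42 and -0.30 (adjusted p = 0.00069 and 0.0040, limma), called in 1 of 3 probe sets at 6 h and 2 of 3 at 48 h. CD47, the thrombospondin-1 receptor, rose by 0.23 and 1.52 (adjusted p = 0.0059 and 5.2e-10, limma), in 3 and 5 of 7 probe sets. CD44, the hyaluronan receptor, was not called at 6 h (0.13) and rose by 1.32 at 48 h (adjusted p = 2.6e-07, limma), in 9 of 13 probe sets.

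The genes whose course over the 9 arrays was most like that of VCAN were sought among all other genes, by the root mean square difference between log2 values centred on each gene's own mean. The nearest 5 were NIBAN1 (0.25), SLCO1B3 (0.57), LRRC34 (0.57), GABPB1-AS1 (0.70) and ALDH1L2 (0.74), and their Pearson correlations with VCAN over the 9 arrays, 3 per group, were 0.99, 0.94, 0.94, 0.98 and 0.90. NIBAN1 averaged 3.53 ± 0.27 at PGG 6 h and 3.92 ± 0.16 at PGG 48 h, against 7.22 ± 0.20 in PBS 48 h (SD, n = 3 each). SLCO1B3, a hepatocyte uptake transporter, averaged 6.00 ± 0.05 and 4.67 ± 0.18 at the 2 PGG times, against 8.57 ± 0.17 in PBS 48 h. Because they were chosen for their likeness to VCAN over these same arrays, the correlations and the lower levels at both PGG times come with the choice. The difference between PGG 48 h and PGG 6 h was 0.40 for NIBAN1, -0.30 for GABPB1-AS1, -1.33 for SLCO1B3, -1.17 for LRRC34 and 1.57 for ALDH1L2, and -0.06 for VCAN itself.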

How the data were processed

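The study hybridized Huh7 RNA to 9 Affymetrix arrays. The log2 values, 1 for each probe set and array, were deposited by the authors after RMA with Affymetrix's Expression Console (for its version, not given in the sources used here). They served without further scaling. RMA fits the array distributions to one another, so a change shared by most genes would not be seen. Of 54675 probe sets 62 controls were left out. The platform annotation gave 1 symbol to 41091 of the rest, several to 1801 and none to 11721. Of these single-symbol sets, 41037 matched the GRCh38.p14 RefSeq table by Entrez identifier, with 0 symbols changed.

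Groups came from the sample titles. Differences were computed with limma 3.58.1 in R 4.3.3 (lmFit with 1 mean per group, eBayes), with Benjamini-Hochberg adjustment over 54613 probe sets or, for other matrix genes, over 19775 genes taken by the probe set with the highest mean. An adjusted p under 0.05 was the threshold, and precision is limited by the number of arrays. The p-values measure the spread between arrays that the labels call biological replicates, with no source for separate cultures.

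The members and gene lists were chosen with earlier results of these data known. Named genes are the members, up to 2 rises and 2 falls per list and comparison with PBS among genes whose arrays did not overlap, fixed partners of members, and the 5 genes nearest to VCAN. Alternatives covered scaling, a filter on dim probe sets, array weights, the replicate block, the arrays fitted, the methods' t-test, the study's cut-off and the choice of probe set. The methods' t-test was adjusted by Benjamini-Hochberg here, whereas the study used q-values. Calls of named genes without single arrays, as given, come from the same fits. A simulation of PGG 48 h against PBS 48 h was run on 54613 probe sets. Simulated log2 changes of 0.5 were found in 31 of 50 cases, and those of 1 in 49 of 50. Those of 2 and 3 were found in 50 of 50 each, and 9 of 54413 unchanged ones were called. The simulation changed far fewer probe sets than the data at 48 h, where 18.8% were called higher and 20.2% lower. Its adjusted threshold was therefore stricter, and these rates are not those of the comparisons reported.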

Additional observations from a re-analysis of the deposited data

Results flagged for a closer look

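COL4A1 (211980_at) differed in direction between the exposure times. It was 1.78 above PBS 48 h at PGG 6 h and -0.97 from it at PGG 48 h, and the difference between PGG 48 h and PGG 6 h was -2.75 on the log2 scale. THBS1 (201109_s_at) was 0.43 above PBS 48 h at PGG 6 h and -3.23 from it at PGG 48 h, with -3.66 between the times. Both comparisons use the same 3 PBS arrays, and the genes were picked with these values known, so no p is given.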

How the results depend on the processing

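Median centring, quantile normalization, the dim filter, array weights, fits of only the 2 groups compared and the methods' t-test kept every count of calls within 1.5 times. At the study's cut-off the member probe sets numbered 1 higher and 5 lower at 6 h, 11 lower at 48 h and 7 lower between the times, and the other matrix genes 4 higher and 0 lower at 6 h (26 lower at an adjusted p under 0.05), 20 higher and 5 lower at 48 h, and 13 higher and 3 lower between the times. COL1A1 by the mean of all its probe sets was 0.24 at 6 h, 1.07 at 48 h and 0.83 between the times, in the opposite direction to its brightest set, whose own values (-0.19, -0.28 and -0.09) leave out the 2 sets that were higher. By the same mean FN1 passed at 48 h (-0.55). COL4A2, not called in the report, passed at 6 h under 5 settings and without either of 2 arrays, and at 48 h under 2 settings and without 1 array, with values of 0.23 to 0.32, and THBS1 at 6 h (0.43) did not pass the methods' t-test.

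Leaving out each array in turn, member probe sets ran from 5 to 7 higher and stayed at 8 lower at 6 h, from 4 to 5 higher and 22 to 23 lower at 48 h, and at 4 higher and 16 to 17 lower between the times. The other matrix genes ran from 28 to 39 higher and 22 to 27 lower at 6 h, from 52 to 57 and 33 to 37 at 48 h, and from 47 to 56 and 31 to 39 between the times. Between the times VCAN ran from -0.13 to 0.01, COL4A2 from -0.09 to 0.05 and FN1 from -0.02 to 0.02, so their direction there is not set. Without PGG 48 h replicate 3 a single VCAN set, 204619_s_at, passed between the times (-0.39).

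The replicate numbers do not pair the samples: the correlations of same-numbered arrays after removing group means were -0.09 to 0.16 over 9 pairs, and those of other arrays -0.18 to 0.11. With the replicate block the member probe sets numbered 8 higher and 9 lower at 6 h, 5 and 23 at 48 h, and 4 and 17 between the times. The COL1A1 and COL4A2 sets below the median of all values on all 9 arrays had the least signal in which a difference could show.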
